A study of Mus musculus with 12 samples.

Results

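RNA of 8 genes of the adrenergic, muscarinic and angiotensin systems was followed in mouse hearts that express NOTCH2NLC with 98 GGC repeats. The genes were chosen by symbol, and each was found as 1 of the 25171 loci of the deposited count table. They were the adrenergic receptors Adrb1, Adrb3, Adra1a and Adra1b, the muscarinic receptor Chrm2, the angiotensin receptor Agtr1a, the angiotensin-converting enzyme Ace and angiotensinogen, Agt. Hearts of 12 mice were sequenced, with 3 mice in each of 4 groups, and the replicates are labelled as separate animals. All 12 mice came from the conditional line, in which a stop sequence flanked by loxP sites precedes the repeat transgene at Rosa26. EIIa-tg mice also carried EIIa-Cre, which removes the stop sequence in all tissues, and EIIa-ctl mice were littermates without this Cre. Both of these groups were 30 days old. By the labels, Myh6-tg and Myh6-ctl mice both came from the cross with Myh6-creERT2, in which the Myh6 promoter drives a tamoxifen-inducible Cre in cardiomyocytes, and both were 90 days old. From day 60, Myh6-tg mice received 3 injections of tamoxifen at 75 mg per kg and Myh6-ctl mice received corn oil. No group received tamoxifen without the transgene, so tamoxifen, active Cre and the transgene cannot be told apart in the Myh6 model.

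In the heart, noradrenaline from sympathetic nerves acts on beta receptors, which raise cAMP through Gs and so increase the rate and force of contraction, and on alpha1 receptors, which signal through Gq and phospholipase C. Acetylcholine from the vagus acts mainly on Chrm2, whose Gi protein lowers cAMP and opens the potassium channel made of Kcnj3 and Kcnj5. Angiotensinogen is cut by renin and then by Ace to angiotensin II, which acts on Agtr1a, a Gq-coupled receptor that raises vascular tone and takes part in cardiac remodelling.

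Between 38343106 and 50969834 reads were counted per heart, and levels are given as normalised CPM, which are read counts relative to the library total after scaling by TMM factors. A gene was said to rise or fall when its adjusted p in the edgeR quasi-likelihood test was under 0.05 over all genes tested, and was a differentially expressed gene (DEG) at an adjusted p under 0.01 with a change of at least 2-fold. At these totals 3 counts, taken as the floor, corresponded to 0.0589 to 0.0782 CPM, which covers counting error only. The hearts carried the markers of heart muscle, with a summed level of 6 cardiomyocyte markers of at least 10022 CPM, whereas 5 neuron and astrocyte markers summed to at most 1.94 CPM. The summed cardiomyocyte markers were between 29986 and 36446 CPM in EIIa-ctl, 14626 and 27143 in EIIa-tg, and 24009 and 31538 in Myh6-ctl hearts. In Myh6-tg hearts they were 29100, 12606 and 10022 CPM in replicates 1, 2 and 3. The 13 protein-coding mitochondrial genes took between 15.5% and 18.6% of the counts in Myh6-tg hearts and between 28.5% and 38.3% in the other 9 hearts. Replicate 1 of each group held between 4224 and 7307 counts of 4 Y-linked genes and the other 8 hearts held at most 2, so replicate 1 was the only male heart in every group. Esr1, from which the hormone-binding part of inducible Cre proteins is made, was at 1581 ± 672 CPM (SD, n = 3) in Myh6-ctl but at 1.61 ± 0.801 in Myh6-tg hearts, near its 0.772 ± 0.419 in EIIa-ctl hearts. The hearts labelled Myh6-tg therefore lacked the Esr1 reads that Myh6-ctl hearts held, although the labels give both groups the same genotype, and the names Myh6-tg and Myh6-ctl stand here for the hearts so labelled. If the labels of these groups were exchanged, every direction given for the Myh6 model would turn. Sqstm1, the autophagy receptor p62, was at 446, 941 and 605 CPM in hearts labelled Myh6-ctl and at 1781, 1998 and 2006 CPM in hearts labelled Myh6-tg, where it rose by 1.54 on the log2 scale (SE 0.31, adjusted p = 0.0166), beside a rise by 1.52 in EIIa-tg hearts (SE 0.18, adjusted p = 0.0135). Esr1 and Sqstm1 were named after their values were seen. The transgene itself was not analysed here. In bulk heart tissue, fewer cells of a type and less RNA per cell cannot be told apart.

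The fitted change of each of the 8 members had the same sign in both models, which was so for 70.9% of the 14649 genes tested in both. The sign of Adrb3 in the EIIa comparison was set by the filter on low counts, so the agreement of all 8 is a description. Adrb1, Adra1a, Adra1b, Chrm2 and Agtr1a had negative and Adrb3, Ace and Agt positive values, although on the FPKM scales Adra1b was positive in the EIIa and Agtr1a in the Myh6 comparison, and most of these values did not pass the test. In EIIa-tg against EIIa-ctl hearts 3 of 8 members passed the test, against 17.0% of all 14908 genes tested. Adrb1 and Chrm2 were the 2 that fell, against 8.30% of all genes. The other was Adrb3, which was called higher, as were 8.65% of all genes, but it passed the filter on low counts only through the EIIa-tg hearts, so nothing is read from its call or from the count of 3. None was a DEG, nor was any other gene in this comparison, which is 0% of the genes tested, although 5204 genes had an unadjusted p under 0.05 and DESeq2 gave 836 DEGs. In Myh6-tg against Myh6-ctl hearts 3 of 8 members passed, against 18.3% of all 15298 genes tested. Ace rose, against 8.96% of all genes, and Adrb1 and Adra1b fell, against 9.38%. Ace and Adra1b were also DEGs, against 3.97% of all genes. The median log2 fold change of the 8 members, Adrb3 included, was -0.29 in the EIIa and -0.32 in the Myh6 comparison, beside 0.016 and 0.032 over all genes tested. Of the calls, those in the EIIa comparison were the least firm. All 3 were lost when EIIa-ctl replicate 1 or 3 or EIIa-tg replicate 1 or 3 was left out, when 0 members passed. Over all genes 0, 1, 0 and 133 then passed, in this order, rather than 2527, so the loss was not particular to the members. Adrb3 alone passed without EIIa-ctl replicate 2, whereas 4 members passed without EIIa-tg replicate 2, beside 1794 and 4079 of all genes. When the replicate number entered as a block, 0 members passed in this comparison and 4 passed in the Myh6 comparison. On the FPKM scale, where 1 member passed in the EIIa comparison, 78.0% of the called genes of that comparison were higher rather than 51%, and 78.7% rather than 48.8% in the Myh6 comparison. This scale moved the median of all genes by 0.14 and 0.31 on the log2 scale, respectively.

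**Figure D1:**
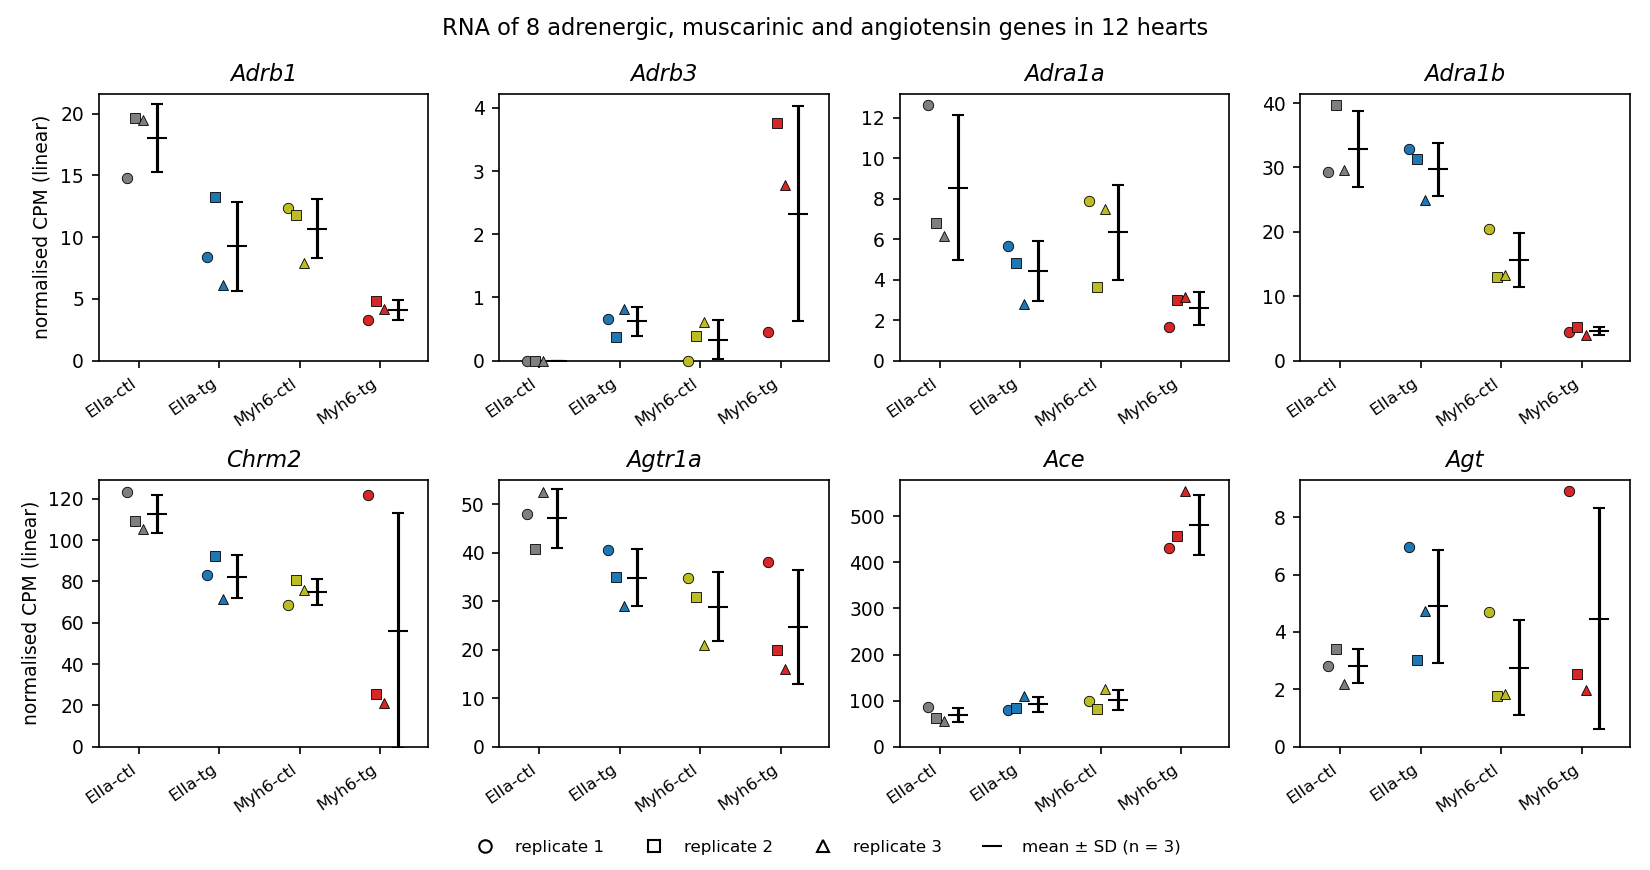
Normalised CPM (linear axes from 0, different for each gene) of the 8 members in each of the 12 hearts, with circles, squares and triangles for replicates 1, 2 and 3 and bars for the mean ± SD of each group (n = 3, cut at 0). Ace was between 431 and 555 CPM in the Myh6-tg hearts and at most 125 CPM in the other 9, and for Chrm2 the Myh6-tg replicate 1 heart lay at 122 CPM, apart from replicates 2 and 3 at 25.6 and 21.2.

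Compared per length, as FPKM, Agtr1a and Chrm2 were the most abundant members in EIIa-ctl hearts, at 19.0 ± 2.2 and 17.5 ± 1.12 FPKM (SD, n = 3), and their ranges overlapped. Ace followed at 12.6 ± 2.46, then Adra1b at 9.53 ± 2.14 and Adrb1 at 6.39 ± 1.17, and neighbours in this part of the order were apart except for Ace and Adra1b, whose ranges overlapped. Adra1a at 1.89 ± 0.767 and Agt at 1.31 ± 0.328 FPKM lay below these 5 and overlapped each other, and Adrb3 was listed at 0. In EIIa-tg and in Myh6-ctl hearts Ace had the highest mean, at 19.6 ± 4.67 and 19.3 ± 6.34 FPKM, and in both groups its range overlapped that of Agtr1a. In Myh6-tg hearts Ace was at 119 ± 26 FPKM, above every other member in all 3 hearts. Adra1b was at 1.76 ± 0.235 FPKM there, in overlap with Adrb1 at 1.95 ± 0.484.

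Adrb1 encodes the main beta receptor of cardiomyocytes and lies on chromosome 19 (chr19:56722199-56733113, plus strand, GRCm38). Its RNA was at 14.8, 19.6 and 19.5 CPM in EIIa-ctl replicates 1, 2 and 3 and at 8.38, 13.2 and 6.15 CPM in EIIa-tg replicates 1, 2 and 3. All EIIa-tg hearts were below all EIIa-ctl hearts, although in FPKM the groups overlapped. Adrb1 fell by 0.96 on the log2 scale (SE 0.27, adjusted p = 0.0442 by edgeR), and without EIIa-tg replicate 3 the log2 fold change was -0.73 with an adjusted p of 0.116. In the other model it was at 12.3, 11.8 and 7.93 CPM in Myh6-ctl and at 3.27, 4.86 and 4.20 CPM in Myh6-tg hearts, again without overlap. There Adrb1 fell by 1.38 on the log2 scale (SE 0.27, adjusted p = 0.0153). The adjusted p was 0.067 without Myh6-ctl replicate 1 and 0.0566 without Myh6-tg replicate 3. The test of the difference between the models did not pass (difference -0.42, SE 0.39, adjusted p = 0.605). The summed cardiomyocyte markers moved the same way in the EIIa hearts. Yet 0 of these 6 markers passed there, with log2 fold changes from -1.34 for Myh6 to 0.092 for Tnnt2. In Myh6-tg replicate 1, where their sum was at 29100 CPM, Adrb1 was at 3.27 CPM, the lowest level of the 12 hearts. Single markers differed from the sum. Myh6 was at most 2903 CPM in any Myh6-tg heart and at least 7204 CPM in Myh6-ctl hearts. Tnni3 was at most 577 against at least 1386.5 CPM. Tnnt2, Actn2, Ttn and Actc1 did not pass in this model, with log2 fold changes of 0.44, 0.58, 0.030 and -0.71. The part of cardiomyocytes in the lower Adrb1 level was not tested in either model.

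Promoter windows of RefSeq (GRCm38.p6), which span 300 bases around an annotated start, were found for 5 of the 8 members, namely Adrb1, Adra1b, Chrm2, Ace and Agt. They were searched on both strands for the TATA box TATAAA, the GC box GGGCGG, the core TGACG of the cAMP-response element, the E-box CACGTG and the AP-1 site TGACTCA, which 13.6%, 35.7%, 20.8%, 7.15% and 5.20% of all 32851 windows held. The window of Adrb1 is shown because it is the only member that fell in both models and its product signals through cAMP, and matches are in capitals.
Adrb1 (chr19:56721867-56722166, plus strand): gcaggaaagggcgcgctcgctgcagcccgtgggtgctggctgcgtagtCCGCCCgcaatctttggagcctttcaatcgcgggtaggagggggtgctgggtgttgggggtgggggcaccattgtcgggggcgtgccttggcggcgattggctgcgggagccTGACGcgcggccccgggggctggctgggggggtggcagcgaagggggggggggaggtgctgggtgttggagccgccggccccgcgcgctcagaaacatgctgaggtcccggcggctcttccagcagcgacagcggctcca
It held a GC box at base 49, read on the opposite strand, and TGACG at base 161. Bases G and C made up 72.3% of it, where the median of all windows was 52.7%. A match is a description of the letters and not evidence of binding.

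Adrb3 encodes a beta receptor that is best known from fat cells and that in heart muscle opposes the other beta receptors. It lies on chromosome 8 (chr8:27225776-27250616, minus strand). EIIa-ctl hearts had 0, 0 and 0 counts of it, and EIIa-tg hearts had 27, 19 and 37 counts, or 0.666, 0.377 and 0.824 CPM. Its mean level was at least 8.19-fold higher when the controls were set to the floor of 3 counts per heart. The edgeR fit gave an adjusted p of 0.0183, which is a description here, since a gene that enters the test only through the group where it is high had to differ. In Myh6-ctl hearts it had 0, 15 and 32 counts and in Myh6-tg hearts 21, 173 and 147, or 0.448, 3.75 and 2.78 CPM. Myh6-tg replicates 2 and 3 were above all other hearts, and replicate 1 was within the range of Myh6-ctl. The log2 fold change was 2.79 (SE 1.19, adjusted p = 0.141), and with the replicate block it was 3.16 with an adjusted p of 0.0311. The 5 adipocyte markers summed to 0.228, 0.391 and 0.652 CPM in EIIa-ctl and to 0.715, 2.56 and 2.09 CPM in EIIa-tg hearts. They were thus higher in the same group as Adrb3, without overlap. Within EIIa-tg the orders differed, as replicate 2 had the lowest Adrb3 level and the highest marker sum. In the Myh6 model they summed to 0.973, 1.22 and 4.10 CPM in the controls and to 0, 0.868 and 2.95 CPM in the transgenic hearts, in overlap. In each group 1 of the 5 markers was at 0 in all hearts. The part of fat cells in the Adrb3 level was not tested. The exons of Adrb3 share 839 bases with Gm45470, an antisense gene, and as the use of strand in the counting is not given in the sources used here, reads of either cannot be told apart.

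Adra1a and Adra1b encode the Gq-coupled alpha1 receptors that noradrenaline acts on in heart muscle, and only Adra1b passed the test. Adra1b (chr11:43774606-43901210, minus strand) was at 29.3, 39.7 and 29.6 CPM in EIIa-ctl hearts and at 32.9, 31.2 and 25.0 CPM in EIIa-tg hearts, so the groups overlapped. Its log2 fold change was -0.15 (SE 0.16, adjusted p = 0.545), and it was 0.050 and 0.056 on the log2(FPKM + 1) and log2(FPKM + 0.1) scales. In Myh6-ctl hearts it was at 20.4, 13 and 13.2 CPM and in Myh6-tg hearts at 4.50, 5.25 and 4.03 CPM. All Myh6-tg hearts were below all other hearts of the study, and Adra1b fell by 1.76 on the log2 scale (SE 0.25, adjusted p = 0.00596). This call held under every alternative that was run, with adjusted p-values of at most 0.0292. The fall in the Myh6 model was larger than the change in the EIIa model, with a difference of -1.61 (SE 0.29, adjusted p = 0.0123).

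Adra1a (chr14:66635251-66771168, plus strand) was at 12.7, 6.83 and 6.14 CPM in EIIa-ctl hearts and at 5.67, 4.85 and 2.78 CPM in EIIa-tg hearts. In the Myh6 model the controls were at 7.92, 3.62 and 7.48 CPM and the Myh6-tg hearts at 1.64, 2.97 and 3.14 CPM. In both models the transgenic hearts were below the control hearts with no overlap in CPM, whereas in FPKM the groups overlapped in both. The changes of -0.95 (SE 0.34, adjusted p = 0.0876) and -1.29 (SE 0.40, adjusted p = 0.0607) missed the threshold. With DESeq2 the adjusted p-values were 0.0345 and 0.0146, and without Myh6-ctl replicate 2 the edgeR value was 0.0444. Of the summed FPKM of Adra1a, Adra1b and Adra1d, Adra1a made up 15% ± 6.43 (SD, n = 3) in the EIIa-ctl group against 9.99% ± 2.33 in the EIIa-tg group. For Myh6-ctl it made up 21.1% ± 5.08 and for Myh6-tg 24.1% ± 6.49, and these ranges overlapped.

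Both RefSeq windows of Adra1b are shown because its change differed between the models, and the counts per gene cannot tell from which start its RNA came.
Adra1b distal (chr11:43901188-43901487, minus strand): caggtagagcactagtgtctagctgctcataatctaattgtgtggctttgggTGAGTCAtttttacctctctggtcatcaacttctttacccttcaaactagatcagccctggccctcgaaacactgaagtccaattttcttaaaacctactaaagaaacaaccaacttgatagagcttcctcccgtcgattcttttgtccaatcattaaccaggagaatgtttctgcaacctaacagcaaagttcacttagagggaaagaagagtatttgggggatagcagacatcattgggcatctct
Adra1b proximal (chr11:43836440-43836739, minus strand): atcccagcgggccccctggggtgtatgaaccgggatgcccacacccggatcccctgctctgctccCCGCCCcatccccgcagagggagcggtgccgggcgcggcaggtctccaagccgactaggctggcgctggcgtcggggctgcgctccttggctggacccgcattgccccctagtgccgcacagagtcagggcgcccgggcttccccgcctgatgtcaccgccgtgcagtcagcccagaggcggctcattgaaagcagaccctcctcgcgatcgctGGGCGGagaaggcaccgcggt
The distal window held 1 AP-1 site, at base 53, and 42.3% G and C. The proximal window held GC boxes at bases 66 and 280 and 71.3% G and C.

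Chrm2, the muscarinic receptor of the heart that couples to Gi (chr6:36388084-36528414, plus strand), fell in EIIa-tg hearts. It was at 123, 109 and 106 CPM in EIIa-ctl and at 83.1, 92.3 and 71.5 CPM in EIIa-tg hearts, with no overlap. Chrm2 fell by 0.46 on the log2 scale (SE 0.12, adjusted p = 0.0377), and without EIIa-ctl replicate 1 the adjusted p was 0.133. In Myh6-ctl hearts it was at 68.3, 80.8 and 75.8 CPM. Myh6-tg replicates 2 and 3 were below these, at 25.6 and 21.2 CPM, whereas replicate 1 was above them, at 122 CPM. With all 3 hearts the log2 fold change was -0.42 (SE 0.61, adjusted p = 0.674), and without Myh6-tg replicate 1 it was -1.68 with an adjusted p of 0.00127. That heart was the male heart of its group and the only 1 of them with summed cardiomyocyte markers in the range of its controls. Of these markers, Myh6 and Tnni3 were below the controls in every Myh6-tg heart, whereas Tnnt2, Actn2, Ttn and Actc1 overlapped the controls in CPM. The part of sex or of cardiomyocytes in its Chrm2 level was not tested. Chrm2 is highest in the atria. The 4 atrial markers summed to 6522, 4187 and 4863 CPM in Myh6-tg replicates 1, 2 and 3 and to 153, 1816 and 760 CPM in the controls, nearly all of it Nppa, an atrial peptide gene that stressed ventricles also express, at 6516, 4170 and 4829 CPM in the Myh6-tg hearts. The other markers were lowest in replicate 1, with Myl4 at 6.0, 14.3 and 29.3, Myl7 at 0.171, 1.45 and 4.26 and Sln at 0, 0.846 and 1.32 CPM in replicates 1, 2 and 3. The part of atrial tissue in the Chrm2 level was not tested.

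The 2 subunits of the potassium channel that Chrm2 opens fell in the Myh6 model. Kcnj3 was at 38.4, 41.2 and 37.3 CPM in Myh6-ctl and at 7.24, 1.91 and 2.61 CPM in Myh6-tg hearts, including replicate 1 in which Chrm2 was high. Kcnj3 fell by 3.32 on the log2 scale (SE 0.48, adjusted p = 0.00607), a DEG. Kcnj5 was at 35.1 ± 5.42 CPM (SD, n = 3) in Myh6-ctl against 15.2 ± 7.12 in Myh6-tg hearts and fell by 1.21 (SE 0.32, adjusted p = 0.0368). In EIIa-tg against EIIa-ctl hearts the log2 fold changes were -0.50 for Kcnj3 and -0.31 for Kcnj5, with adjusted p-values of 0.122 and 0.179. The change of Kcnj3 differed between the models (difference -2.81, SE 0.55, adjusted p = 0.0158).

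Agt, the precursor of the angiotensins, which is made mostly in the liver (chr8:124556534-124569706, minus strand), had few reads in these hearts. It was at 2.82, 3.41 and 2.2 CPM in EIIa-ctl and at 6.95, 3.02 and 4.74 CPM in EIIa-tg hearts. These groups overlapped through EIIa-tg replicate 2, and the log2 fold change was 0.79 (SE 0.32, adjusted p = 0.121), or 1.04 with an adjusted p of 0.0282 without that heart. In Myh6-ctl hearts Agt was at 4.68, 1.76 and 1.84 CPM and in Myh6-tg hearts at 8.90, 2.54 and 1.97 CPM. Replicate 1, the male heart, had the highest level in both of these groups and in EIIa-tg, but not in EIIa-ctl hearts. The part of sex in the Agt level was not tested. The log2 fold change was 0.69 (SE 0.66, adjusted p = 0.502), and it was -0.30 without Myh6-tg replicate 1.

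Ace (chr11:105967945-105989964, plus strand), the enzyme on the surface of endothelial and other cells that forms angiotensin II, was the only member that rose in the Myh6 model. Myh6-ctl hearts had 4403, 3145 and 6567 counts of it and Myh6-tg hearts had 20187, 21129 and 29317. In normalised CPM these were 99.6, 81.4 and 125 against 431, 458 and 555, and every Myh6-tg heart was above every other heart of the study. Ace rose 4.73-fold (log2 fold change 2.24, SE 0.24, adjusted p = 0.00242), with an adjusted p of at most 0.0191 under every alternative that was run. In EIIa-ctl hearts Ace was at 85.3, 62.5 and 56.8 CPM and in EIIa-tg hearts at 80.0, 84.8 and 111 CPM, in overlap, although in FPKM all EIIa-tg hearts were above the controls. The log2 fold change was 0.43 there (SE 0.18, adjusted p = 0.126). The change in the Myh6 model exceeded that in the EIIa model by 1.81 on the log2 scale (SE 0.30, adjusted p = 0.00909).

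The endothelial cells that carry Ace were followed by 5 markers. None of Pecam1, Cdh5, Kdr, Tek and Vwf passed the edgeR test in the Myh6 model, with 1 of the 5 at an unadjusted p under 0.05 and 1 that fell by DESeq2, and their sum was at 1113, 495 and 827 CPM in Myh6-ctl and 670, 602 and 554 CPM in Myh6-tg hearts. Their largest change was that of Kdr (log2 fold change -1.65, adjusted p = 0.0528). The log2 fold changes of the 5 markers lay between -1.65 and 0.20, so the sum does not stand for each of them. The part of endothelial cells in the Ace level was not tested. Among fibroblast markers, Pdgfra and Col1a1 rose in the Myh6 model, by 1.23 and 2.11 on the log2 scale. Dcn, Tcf21 and Lum did not pass, with log2 fold changes of 0.64, 0.28 and -0.79. The summed 5 markers were at 1441, 2935 and 3241 CPM in Myh6-tg against 1313, 1473 and 1597 CPM in Myh6-ctl hearts. In Myh6-tg replicate 1 the fibroblast sum lay within the Myh6-ctl range, and Ace was at 431 CPM. Single markers differed from this sum. Pdgfra was at least 132 CPM in every Myh6-tg heart and at most 72.8 CPM in Myh6-ctl hearts, and Col1a1 was at least 466 against at most 184 CPM. The part of fibroblasts in the Ace level was not tested. The exons of Ace share 295 bases with the antisense gene Gm11651.

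**Figure D2:**
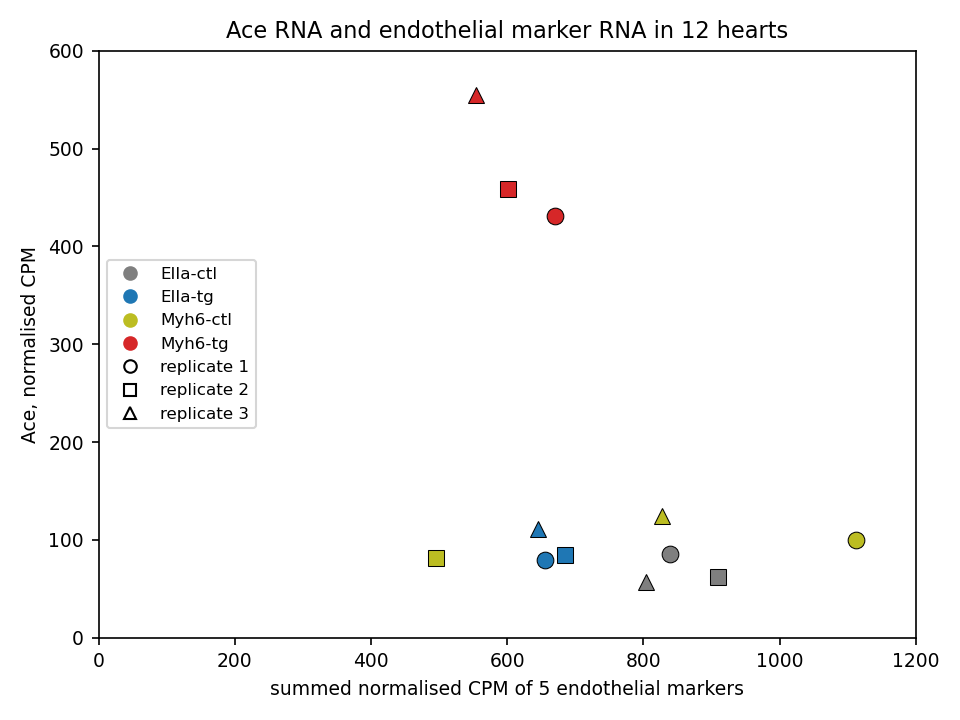
Ace (normalised CPM, vertical axis) against the summed normalised CPM of the 5 endothelial markers (horizontal axis) in the 12 hearts, with colours for the groups and symbols for the replicates. The 3 Myh6-tg hearts lie between 431 and 555 CPM of Ace at marker sums between 554 and 670 CPM, within the 495 to 1113 CPM of the Myh6-ctl hearts.

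Ace has an upstream start, used in body tissues, and an internal start, known from male germ cells. Both RefSeq windows are shown because Ace was the only member that rose in the Myh6 model, and counts per gene do not separate the starts.
Ace upstream (chr11:105967698-105967997, plus strand): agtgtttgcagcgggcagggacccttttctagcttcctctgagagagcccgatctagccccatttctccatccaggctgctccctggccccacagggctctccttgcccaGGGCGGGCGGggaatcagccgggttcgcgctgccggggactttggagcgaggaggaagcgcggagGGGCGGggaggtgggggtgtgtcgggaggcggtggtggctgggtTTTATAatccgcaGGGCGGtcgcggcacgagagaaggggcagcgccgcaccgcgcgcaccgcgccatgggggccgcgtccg
Ace internal (chr11:105974939-105975238, plus strand): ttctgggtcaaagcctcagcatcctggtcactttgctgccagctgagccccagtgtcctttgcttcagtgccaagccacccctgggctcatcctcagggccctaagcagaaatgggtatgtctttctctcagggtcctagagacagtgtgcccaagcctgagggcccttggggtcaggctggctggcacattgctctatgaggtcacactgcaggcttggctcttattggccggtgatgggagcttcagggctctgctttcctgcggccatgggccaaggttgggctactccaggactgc
The upstream window held 4 GC boxes, at bases 111, 115, 176 and 233, of which the first pair overlap, and a TATA box at base 220, read on the opposite strand. It had 69.7% G and C and 29 CpG, where the median of all windows was 7 CpG. The internal window held none of the 5 motifs, 59% G and C and 2 CpG.

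Agtr1a, the receptor of angiotensin II (chr13:30336441-30382867, plus strand), did not pass in either model. It was at 48.0, 40.7 and 52.6 CPM in EIIa-ctl and at 40.7, 35 and 28.9 CPM in EIIa-tg hearts, where the lowest control and the highest transgenic heart all but met, and in FPKM the groups overlapped. The log2 fold change was -0.44 (SE 0.15, adjusted p = 0.0764, and 0.0452 with DESeq2). In Myh6-ctl hearts it was at 34.9, 30.8 and 21.0 CPM and in Myh6-tg hearts at 38, 19.9 and 16.0 CPM, highest in replicate 1. The log2 fold change was -0.23 (SE 0.35, adjusted p = 0.686), and it was 0.081 and 0.084 on the log2 FPKM scales.

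The control groups, which differ in age, Cre and injection at once, were compared to see where the members stood without the transgene active. By edgeR, 0 of the 7 members tested passed in Myh6-ctl against EIIa-ctl hearts, where 0.0334% of all 14990 genes did, 0.0200% higher and 0.0133% lower, and Adrb3 was not tested. At an unadjusted p under 0.05 there were 5 of 7, against 11.3% of all genes, and by DESeq2 Adra1b and Chrm2 passed, with adjusted p-values of 0.000827 and 0.0112. The log2 differences were -1.08 for Adra1b (SE 0.22, adjusted p = 0.126), -0.75 for Adrb1 (SE 0.21, adjusted p = 0.23), -0.70 for Agtr1a (SE 0.20, adjusted p = 0.23) and -0.59 for Chrm2 (SE 0.13, adjusted p = 0.15). For these 4 genes all Myh6-ctl hearts were below all EIIa-ctl hearts, as was so for 8.73% of all genes tested. Without Myh6-ctl replicate 1, Adra1b had a log2 difference of -1.32 and an adjusted p of 0.041. Over all members, the changes in the 2 models differed for Ace and Adra1b, 2 of 8 against 3.92% of all 15929 genes tested. Ace was the 1 with a higher change in the Myh6 model, against 1.65% of all genes, and Adra1b the 1 with a lower change, against 2.27%. Without Myh6-tg replicate 1 these were 3 of 8, with Chrm2 at -1.23 (adjusted p = 0.00357).

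**Figure D3:**
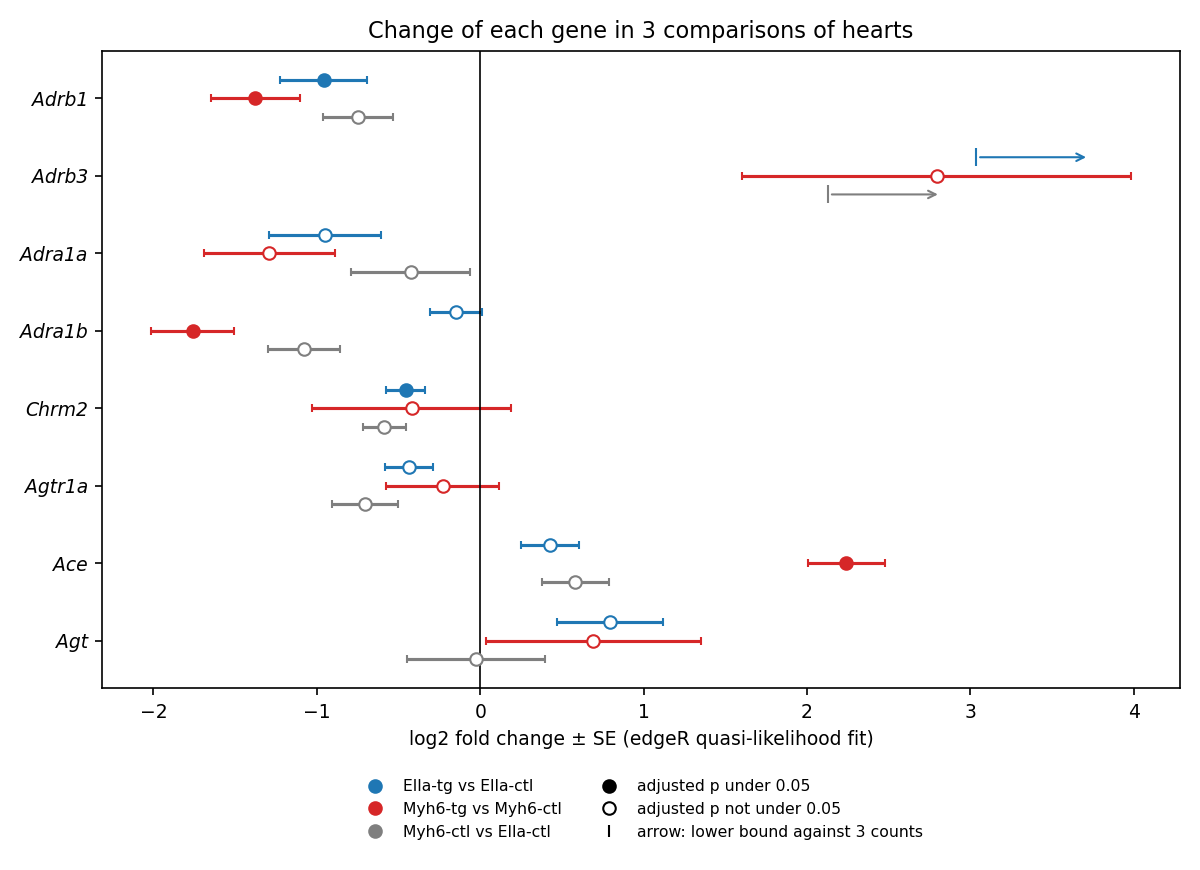
Log2 fold change ± SE of the 8 members (vertical axis) in EIIa-tg against EIIa-ctl (blue), Myh6-tg against Myh6-ctl (red) and Myh6-ctl against EIIa-ctl (grey), 3 hearts in each group, with filled points for an adjusted p under 0.05 and arrows for lower bounds against the floor of 3 counts. Ace at 2.24 and Adra1b at -1.76 stand apart in the Myh6 comparison, and the bound for Adrb3 in EIIa-tg hearts is 8.19-fold.

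The partners of these genes were taken from 7 lists by role. Over all genes tested, 8.65% rose and 8.30% fell in the EIIa comparison, and 8.96% rose and 9.38% fell in the Myh6 comparison. The counts of each list stand beside these shares, and a count near them is not read as a result about the list. Of the 9 other adrenergic and muscarinic receptors 5 could be tested in each model, and 0 passed by edgeR or by DESeq2, with 1 of the 5 at an unadjusted p under 0.05 in the EIIa and 0 in the Myh6 comparison. Of the other renin-angiotensin genes, 3 of 16 rose in EIIa-tg hearts, namely Ctsa, a lysosomal carboxypeptidase (0.44), Cma1, a mast cell chymase that also forms angiotensin II (1.39), and Atp6ap2, a proton pump subunit that binds prorenin (0.46, all log2 fold changes). In Myh6-tg hearts Atp6ap2 rose by 0.97 on the log2 scale and was the only 1 of 15 to rise, whereas 2 fell. These were Mme, the membrane enzyme that breaks down natriuretic peptides and angiotensins, with a log2 fold change of -2.30 (SE 0.32, adjusted p = 0.0057), a DEG, and Nr3c2, the mineralocorticoid receptor, with -1.05 (SE 0.19, adjusted p = 0.0112). Mme was at 12.3, 6.99 and 11.2 CPM in Myh6-ctl and at 2.69, 1.89 and 1.65 CPM in Myh6-tg hearts, with no overlap. Renin itself, Ren1, had at most 3 counts in any heart, Agtr1b had 0 counts in every heart and Agtr2 had at most 16 counts.

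In each model 3 genes that supply or remove the transmitters passed the test, of 10 tested in the EIIa and 11 in the Myh6 comparison. Over all genes 17.0% and 18.3% passed. Dbh, which makes noradrenaline, was at 3.96, 3.49 and 4.95 CPM in EIIa-ctl and 1.28, 2.38 and 1.18 CPM in EIIa-tg hearts. Dbh fell by 1.35 on the log2 scale (SE 0.33, adjusted p = 0.0318), and in the Myh6 model it fell by 4.30 (SE 1.01, adjusted p = 0.0251), to 11, 0 and 9 counts in the Myh6-tg hearts. Slc22a3, a transporter that clears catecholamines outside nerves, fell by 1.80 in EIIa-tg hearts (SE 0.44, adjusted p = 0.032). In Myh6-tg hearts it fell by 4.66 (SE 0.71, adjusted p = 0.00724) and was a DEG, with 10, 2 and 12 counts. In the Myh6 comparison Dbh and Slc22a3 passed the filter on low counts only through the Myh6-ctl hearts. Their calls there, and the count of 3 in that comparison, are therefore a description. Of the monoamine oxidases, which break down noradrenaline, Maoa rose by 1.58 in EIIa-tg hearts (SE 0.20, adjusted p = 0.0135) and Maob fell by 1.54 in Myh6-tg hearts (SE 0.38, adjusted p = 0.0296). In all, 1 of 10 genes of this list rose and 2 fell in the EIIa comparison, and 0 of 11 rose and 3 fell in the Myh6 comparison, where DESeq2 gave 1 that rose.

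Downstream of Gs, 1 of 18 genes rose and 4 fell in EIIa-tg hearts, against 8.65% and 8.30% of all genes. Akap5, which anchors protein kinase A beside beta receptors, fell by 2.38 on the log2 scale (SE 0.43, adjusted p = 0.0178), from 6.28 ± 0.814 CPM in EIIa-ctl to 1.19 ± 0.728 in EIIa-tg hearts (SD, n = 3). Prkar2a, a subunit of that kinase, and Adcy5, an adenylyl cyclase, fell by 0.45 and 0.47, and Pde3b, a phosphodiesterase that breaks down cAMP, rose by 0.90. The other gene that fell was Akap7 (-0.58), which lay outside the rule for named genes. In Myh6-tg hearts 0 of 18 rose and 2 fell. These were Akap5, by 3.94 (SE 0.77, adjusted p = 0.0148), and Pln, phospholamban, the inhibitor of the calcium pump, by 2.52 (SE 0.65, adjusted p = 0.0341). Akap5 had 5 to 10 counts in Myh6-tg hearts and passed the filter only through the Myh6-ctl hearts, so its call there is a description. Without Myh6-tg replicate 1 the number that fell was 6, and it was 0 without Myh6-ctl replicate 1 or without Myh6-tg replicate 2 or 3. Adcy5 and Adcy6, the main cyclases of heart muscle, were at 46.2 ± 23.1 and 64.0 ± 33.0 CPM in Myh6-tg against 61.0 ± 2.64 and 118 ± 26.1 CPM in Myh6-ctl hearts, with adjusted p-values of 0.413 and 0.122.

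Downstream of Gi, Gnao1, a G protein alpha subunit, rose in both models, by 0.67 in EIIa-tg (SE 0.13, adjusted p = 0.0207) and by 1.47 in Myh6-tg hearts (SE 0.19, adjusted p = 0.00451). It was the only 1 of 8 genes that passed in the EIIa comparison, and in the Myh6 comparison Gnai1 also rose (1.44) while Kcnj3 and Kcnj5 fell. Downstream of Gq, Rcan1, a target of calcineurin, rose by 1.11 and Prkce, a protein kinase C, fell by 0.70 in EIIa-tg hearts, 2 of 16. In Myh6-tg hearts 3 of 15 fell, among them Plcb1, the phospholipase C that Gq activates (-1.47), and Prkd1, a kinase activated by diacylglycerol (-0.77), and 1 rose, the protein kinase C gene Prkcd (0.79), which lay outside the rule for named genes. Of the 6 receptor kinases and arrestins, which switch receptors off, 2 rose and 0 fell in each model. Over all genes 8.65% rose in the EIIa and 8.96% in the Myh6 comparison. Grk5 was at 19.9, 32.3 and 20.5 CPM in EIIa-ctl and 48.5, 37.2 and 48.2 CPM in EIIa-tg hearts and rose by 0.88 on the log2 scale (SE 0.20, adjusted p = 0.028). It was at 34.2, 28.7 and 35.8 CPM in Myh6-ctl and 62.5, 62.9 and 66.8 CPM in Myh6-tg hearts and rose by 0.96 (SE 0.16, adjusted p = 0.00946). The other gene that rose was Arrb2 in EIIa-tg (0.74) and Grk3 in Myh6-tg hearts (1.09), and Grk2, the best known kinase of the beta receptors, was between 69.7 and 77.4 CPM in the means of the 4 groups with adjusted p-values of 0.358 and 0.787. With the replicate block, or without EIIa-ctl replicate 1, EIIa-ctl replicate 3 or EIIa-tg replicate 1, 0 genes of the 7 lists passed in the EIIa comparison. In the Myh6 comparison the block gave 4 rather than 2 genes that fell downstream of Gs, 2 rather than 1 renin-angiotensin genes that rose, and 1 rather than 0 genes of transmitter supply and removal that rose. The median log2 fold changes of the lists were between -0.48 (other receptors) and 0.14 (kinases and arrestins) in the EIIa comparison and between -0.74 (transmitter supply and removal) and 0.29 (kinases and arrestins) in the Myh6 comparison.

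**Figure D4:**
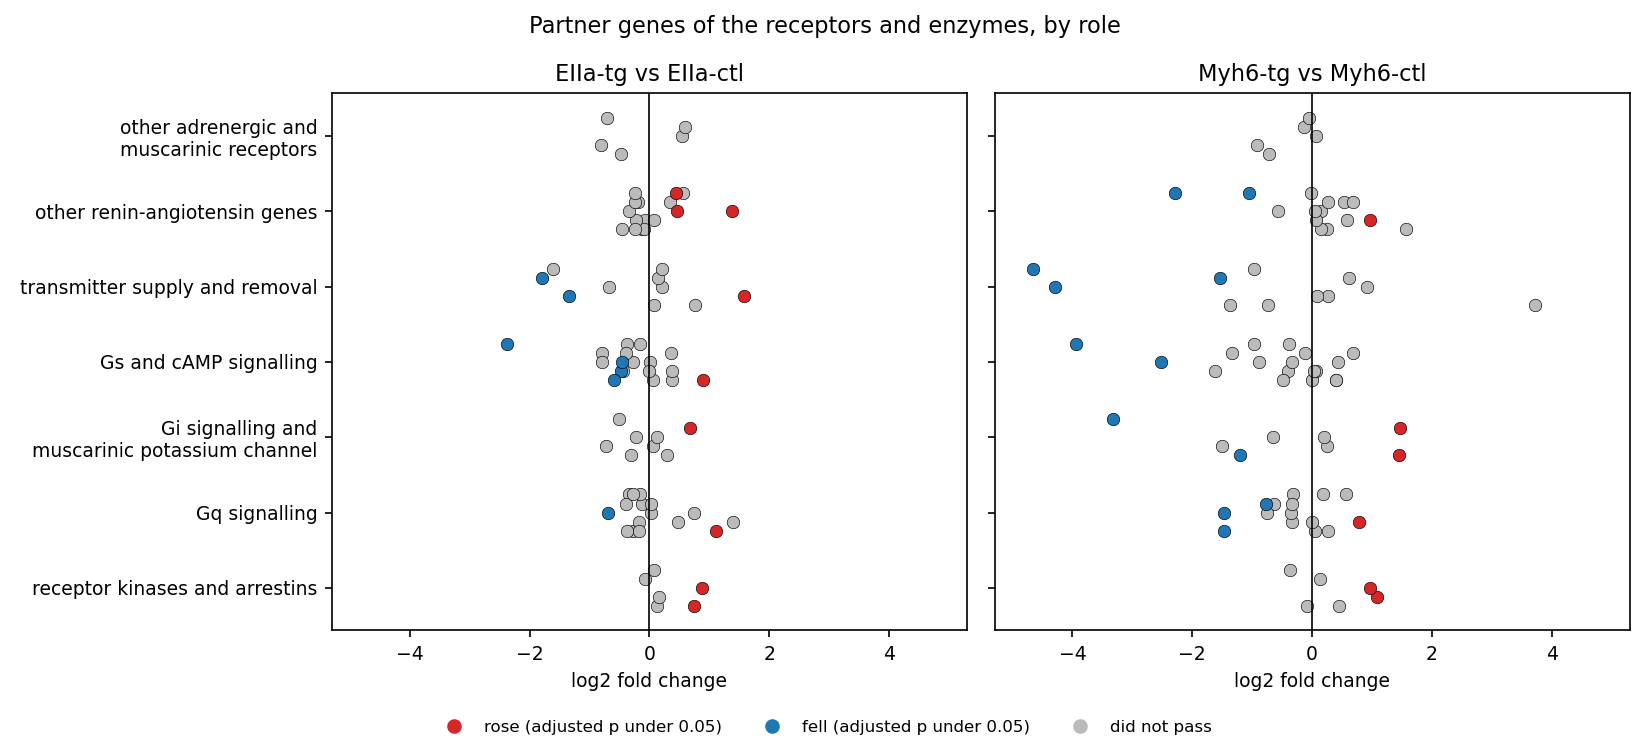
Log2 fold change (horizontal axis) of each tested gene of the 7 partner lists (vertical axis) in EIIa-tg against EIIa-ctl (left) and Myh6-tg against Myh6-ctl (right), with red points for genes that rose, blue for genes that fell and grey for genes that did not pass the edgeR test at an adjusted p under 0.05. The largest falls on the right are those of Slc22a3 (-4.66), Dbh (-4.30), Akap5 (-3.94) and Kcnj3 (-3.32). Slc22a3, Dbh and Akap5 had at most 12 counts in any Myh6-tg heart and passed the filter there only through the Myh6-ctl hearts.

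Markers of the cell types of the heart were counted in the same way. The shares of all genes beside them were 8.65% that rose and 8.30% that fell in the EIIa comparison. In the Myh6 comparison these were 8.96% and 9.38%. In the EIIa comparison 4 of 4 macrophage, 2 of 5 fibroblast and 1 of 2 atrial markers rose, and 2 of 5 endothelial, 1 of 5 smooth muscle and pericyte and 1 of 1 autonomic neuron markers fell, the last of these being Dbh. In the Myh6 comparison 2 of 5 fibroblast, 1 of 3 atrial and 1 of 4 autonomic neuron markers rose, and 2 of 6 cardiomyocyte, 2 of 5 smooth muscle and pericyte and 1 of 4 autonomic neuron markers fell. The cardiomyocyte markers that fell were Myh6 (-2.60) and Tnni3 (-2.39). The autonomic marker that fell was again Dbh, which here passed the filter only through the Myh6-ctl hearts. The one that rose was Npy, a peptide of sympathetic nerves, with 12, 11 and 10 counts in Myh6-tg and 0, 0 and 0 in Myh6-ctl hearts, and it had passed the filter only through the Myh6-tg hearts. Th, which makes the precursor of noradrenaline, and Prph, a filament of peripheral neurons, had log2 fold changes of 3.71 and 2.35. Their adjusted p-values were 0.0807 and 0.0598 by edgeR, at no more than 1.93 CPM in any Myh6-tg heart. Controls had at most 5 counts of Th and transgenic hearts 16 to 34, so Th also passed the filter only through the latter. The directions of Npy, Th and Dbh in this comparison are therefore not read. Slc6a2, the marker left untested, was lower in the mean, at 0.0502 CPM against 0.106 CPM for the controls, in overlap. The 5 markers summed to between 1.69 and 5.49 CPM per control heart and between 1.86 and 2.88 CPM per transgenic heart, also in overlap. Npy, Th, Prph and Slc6a2 were named after their values were seen. With the replicate block 3 atrial markers rose, 1 smooth muscle and pericyte marker fell and 1 fibroblast marker fell in this comparison. Of 4 macrophage markers 0 passed in the Myh6 comparison by edgeR, with 2 at an unadjusted p under 0.05 and 2 that rose by DESeq2. No adipocyte or brain marker passed in either comparison by edgeR or DESeq2, with 1 adipocyte marker at an unadjusted p under 0.05 in the EIIa comparison.

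The genes whose log2 CPM over the 12 hearts was most like that of each member, among 10204 genes with a mean of at least 5 CPM, are given as a description, because the points share their groups and libraries. Closest to Ace were Ifngr1 and Suco (Pearson r 0.982 and 0.981), and closest to Adra1b were Impa2 and Cadm4 (0.984 and 0.957). Closest to Adrb1 were Rasip1 and Dcaf4 (0.976 and 0.974), to Adrb3 2310057M21Rik and Usp53 (0.983 and 0.978), and to Adra1a Mapk14 and Azi2 (0.949 and 0.946). For Chrm2 these were Sema4d and Ccrl2 (0.974 and 0.972), for Agtr1a Nt5c3b and Clpx (0.969 and 0.968), and for Agt Hsd11b1 and Ggt5 (0.874 and 0.872).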

How the data were processed

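Total RNA of heart tissue was made into libraries and sequenced, and the authors deposited raw read counts per gene together with FPKM values, which scale the fragments of a gene by its length and the mapped total. The submitters' processing notes name HISAT2 2.0.4, StringTie 2.2.1 and DESeq2 and the builds GRCm39 and mm10, and the study's methods name GRCm38. The counting program and its use of strand are not given in the sources used here. The table held 22036 Ensembl genes and 3135 loci assembled by the authors, and 0 of its sample columns were left unused.

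Samples were grouped by title. The genotype labels of EIIa-tg replicates 2 and 3 are written differently from that of replicate 1, and the extraction text names brain, so heart markers were checked. The deposited counts were tested in R 4.3.3 with edgeR 4.0.16, using filterByExpr with the group, TMM factors, glmQLFit and glmQLFTest, and Benjamini-Hochberg adjustment over all genes tested. Each comparison used its own groups, and the difference between the models used all 12 hearts. Genes were called at an adjusted p under 0.05. P-values measure the spread between hearts labelled as biological replicates. Alternatives were DESeq2 1.42.0, RLE factors, no filter, at least 1 CPM in 3 hearts, removal of mitochondrial genes, a replicate block, 1 fit of all hearts, limma 3.58.1 on log2(FPKM + 1) and log2(FPKM + 0.1) for genes with at least 0.5 FPKM in 3 hearts, and leaving out each heart. Shares were also computed from counts, which was chosen after seeing the data, as was applying the alternatives to the lists. The edgeR fold changes used its default prior count. For the likeness of genes and the correlations between hearts, 2 was added to each CPM before taking log2. The scripts were tested on simulated data with 100 genes changed by 1 and 100 changed by 2 on the log2 scale in each comparison. Of those changed by 1, 62% were called in the EIIa, 11% in the Myh6 and 49% in the control comparison, and 6% in the difference. Of those changed by 2, 80%, 68%, 84% and 51% were called, in this order. Fewer genes were changed there than passed in the EIIa and Myh6 comparisons of the hearts. As the adjustment depends on that number, these shares need not hold for the data. A gene that did not pass is in any case not shown to be unchanged.

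The same replicate numbers occur in all groups. Deviations from the group means correlated between same-numbered Myh6-tg and Myh6-ctl hearts at 0.247, 0.216 and 0.264, all over 0.1, and replicate 1 was male in each group. The numbers were therefore treated as possible pairs there. The main test of the Myh6 model nonetheless used no covariate, for pair or for sex. The pairing entered only through the replicate block, as an alternative. In the EIIa groups the correlations were 0.105, -0.177 and -0.153, and the numbers were not taken as pairs.

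The members and the gene lists were chosen with earlier results of these data known. Genes named were the 8 members, up to 3 called genes with the lowest adjusted p per list and transgenic comparison, the partners Ren1, Agtr2, Agtr1b, Kcnj3, Kcnj5, Adcy5, Adcy6, Grk2 and Grk5 and, per member, the 2 genes most like it. Some genes that the rule names are not reported here. Gene positions are from GENCODE M21 (GRCm38). Figures were drawn with Python 3.11.15 and matplotlib 3.10.9.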

Additional observations from a re-analysis of the deposited data

Results flagged for a closer look

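The results below differed between the 2 models by the edgeR test of the difference itself, given as the change in the Myh6 model minus that in the EIIa model on the log2 scale. Among the members, the difference was 1.81 for Ace (adjusted p = 0.00909) and -1.61 for Adra1b (adjusted p = 0.0123). For Kcnj3, a subunit of the potassium channel that Chrm2 opens, it was -2.81 (adjusted p = 0.0158). For Mme, the membrane enzyme that breaks down angiotensins, it was -1.85 (adjusted p = 0.0277), and for the mineralocorticoid receptor gene Nr3c2 it was -0.81 (adjusted p = 0.0447). The monoamine oxidase gene Maob had a difference of -1.76 (adjusted p = 0.0473), and Plcb1, the phospholipase C downstream of Gq, had -1.51 (adjusted p = 0.0195). Among cell type markers, the difference was -1.27 for the pericyte marker Abcc9 (adjusted p = 0.0189) and -1.64 for the macrophage marker Adgre1 (adjusted p = 0.0289). Abcc9 and Adgre1 were named after their values were seen. The models also differ in age, Cre and injection, which cannot be told apart from the model.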

How the results depend on the processing

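The rise of Ace and the fall of Adra1b in the Myh6 model, and the difference of both between the models, passed under every alternative run. Of the log2 values of the members over all alternatives, 437 kept their direction and side of the threshold, 24 lost and 12 gained a call, and 23 changed sign. With DESeq2 5 members passed in the EIIa, 5 in the Myh6 and 2 in the control comparison, rather than 3, 3 and 0. In the EIIa comparison 0 members passed with the replicate block, 0 in 1 fit of all 12 hearts, and 1 on each FPKM scale. Leaving out each heart gave 0 to 4 members in the EIIa, 2 to 4 in the Myh6 and 0 to 1 in the control comparison. The replicate block left 1 of 2527 calls over all genes in the EIIa comparison, and 1 fit of all hearts left 227, of which 77.5% were higher. DESeq2 gave 836, 2135, 176 and 616 DEGs in the EIIa, Myh6 and control comparisons and the difference, where edgeR gave 0, 608, 5 and 99, and over all genes it called 428 rather than 5 in the control comparison. The FPKM scales moved the median of the differences by 0.20 and 0.23, and 69.1% and 62.4% of the called differences were then higher rather than 42.1%. The cause of these shifts was not tested.

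The signs that changed belonged to log2 values that had not passed. In the EIIa comparison Adra1b was 0.050 and 0.056 on the FPKM scales and -0.23 to 0.0076 when each heart was left out. In the Myh6 comparison Agtr1a was 0.081 and 0.084 on the FPKM scales and -0.69 to 0.0037 when each heart was left out, and Agt was -0.30 to 1.30. Between the controls Agt was -0.65 to 0.21. For the difference between the models, Chrm2 was -0.26 with the replicate block, -0.16 and -0.22 on the FPKM scales and -1.23 to 0.42 when each heart was left out, Agtr1a was -0.26 to 0.43 and Agt -1.10 to 0.51. Adrb3 and Agt had few reads, which limits the precision of both.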
